A study of Mus musculus with 19 samples.

Results

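The genes described here are 10 transcripts commonly used to recognise monocytes and macrophages that have recently come from them, read in Kupffer cells, the macrophages that reside in the liver sinusoids. They are Ly6c2, Plac8, Chil3, Cd93, Fn1, S100a4, S100a6, S100a11, Napsa and Vcan. All 10 were found by mouse symbol among the 33919 genes of the deposited table, and each was followed across 3 groups of libraries from wild-type female C57BL/6 mice. Chow_EmKCs (n = 6) are Kupffer cells of embryonic origin from mice on chow. MCD_EmKCs (n = 6) are cells of the same kind from mice kept for 4 weeks on an MCD diet, a diet without methionine and choline that brings on steatohepatitis in mice. MCD_MoKCs (n = 7) are Kupffer cells of monocyte origin from MCD-fed mice. Origin was read from the sort gate and not from lineage tracing: cells positive for both CLEC2 and TIMD4 were taken as EmKCs, and CLEC2-positive cells without TIMD4 as MoKCs. No chow-fed MoKC group was analysed here, so in any comparison of MCD_MoKCs with Chow_EmKCs the diet and the subset cannot be told apart.

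When resident Kupffer cells are lost, circulating monocytes enter the liver, settle in the vacated niche and take on much of the Kupffer cell program over time. Classical monocytes of the mouse carry the surface antigen Ly6C and express secreted and matrix genes such as Chil3, Vcan and Fn1, which fall as the cells mature into tissue macrophages. Genes that are still expressed after that change of identity are often read as an imprint of monocyte origin. In bulk RNA of sorted cells, fewer cells of a type and less RNA per cell cannot be told apart.

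The libraries held 11642240 to 30983487 reads assigned to genes, and 14643 to 16847 genes were detected in each. Values are reads divided by 1 size factor per library, called normalised reads. Of the 33919 genes, 14875 reached 10 normalised reads in at least 6 libraries and were tested with limma on log2(normalised reads + 1), as two-sided tests, and p-values were adjusted by Benjamini-Hochberg over all of them with a threshold of 0.05. Nothing in the labels says whether libraries stem from different mice, and the p-values therefore cover only the variation among libraries. The sort label held in the RNA: Timd4 stood at 258 to 743 normalised reads in MCD_MoKCs, against 6584 to 8501 in MCD_EmKCs and 8423 to 13558 in Chow_EmKCs. Kupffer cell markers were present in all MCD_MoKCs libraries at lower levels, with Clec4f, a Kupffer cell lectin, at 13948 to 27160 normalised reads against 150476 to 260533 in the EmKC libraries.

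Recruited against resident cells on the same diet was the comparison in which a monocyte imprint would show. Ly6c2, Chil3, Cd93, Fn1, S100a4, S100a6, S100a11 and Napsa were higher in MCD_MoKCs than in MCD_EmKCs, by log2 fold changes of 4.47 (Ly6c2) to 8.97 (Cd93). Plac8 was the exception among the tested members: its difference of -0.41 did not pass the threshold. Thus 8 of the 9 tested members were called higher and 0 lower (limma), where 5.64% of all 14875 tested genes were called higher and 4.9% lower. The median log2 fold change of the 9 tested members was 5.18, against 0.02 over all tested genes. For Cd93, S100a4, S100a6, S100a11 and Napsa every MCD_MoKCs library lay above every MCD_EmKCs library, a pattern shown by 2.62% of tested genes. Vcan reached 10 normalised reads in 5 libraries and was too low for the fit across genes. Ly6c2, Chil3, Cd93, S100a4 and S100a11 would not have entered the fit without the MCD_MoKCs libraries, where they were high. The filter thus favoured a difference in these 5 without forcing it, and neither the count nor the median above carries weight. Plac8, Fn1, S100a6 and Napsa would have entered without those libraries.

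**Figure D1:**
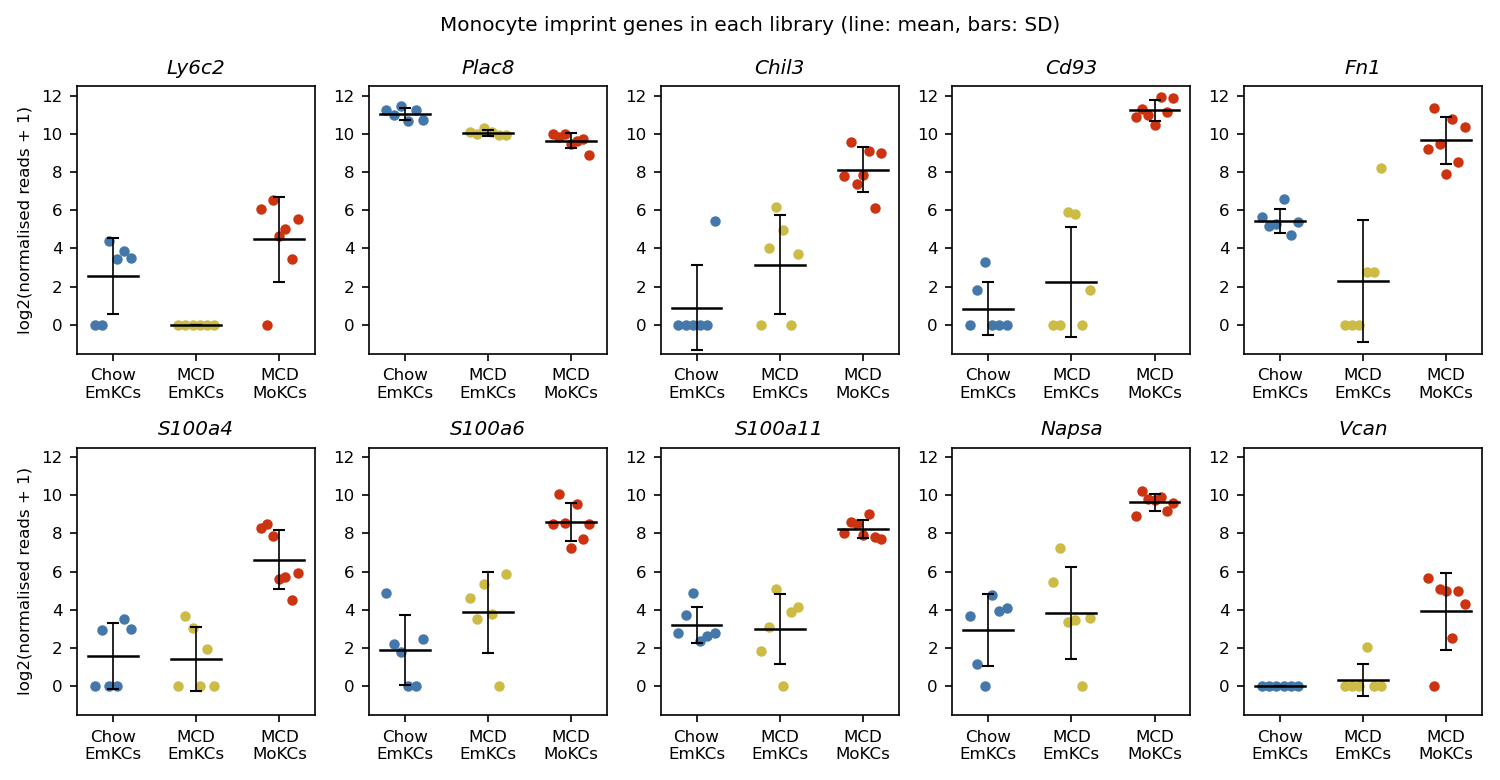
Each panel shows 1 gene as log2(normalised reads + 1) in the 6 Chow_EmKCs, 6 MCD_EmKCs and 7 MCD_MoKCs libraries, with points for libraries, lines for means and bars for SD. Plac8 is high in all 3 groups and highest on chow, while the other 9 genes are low in most EmKC libraries.

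**Figure D2:**
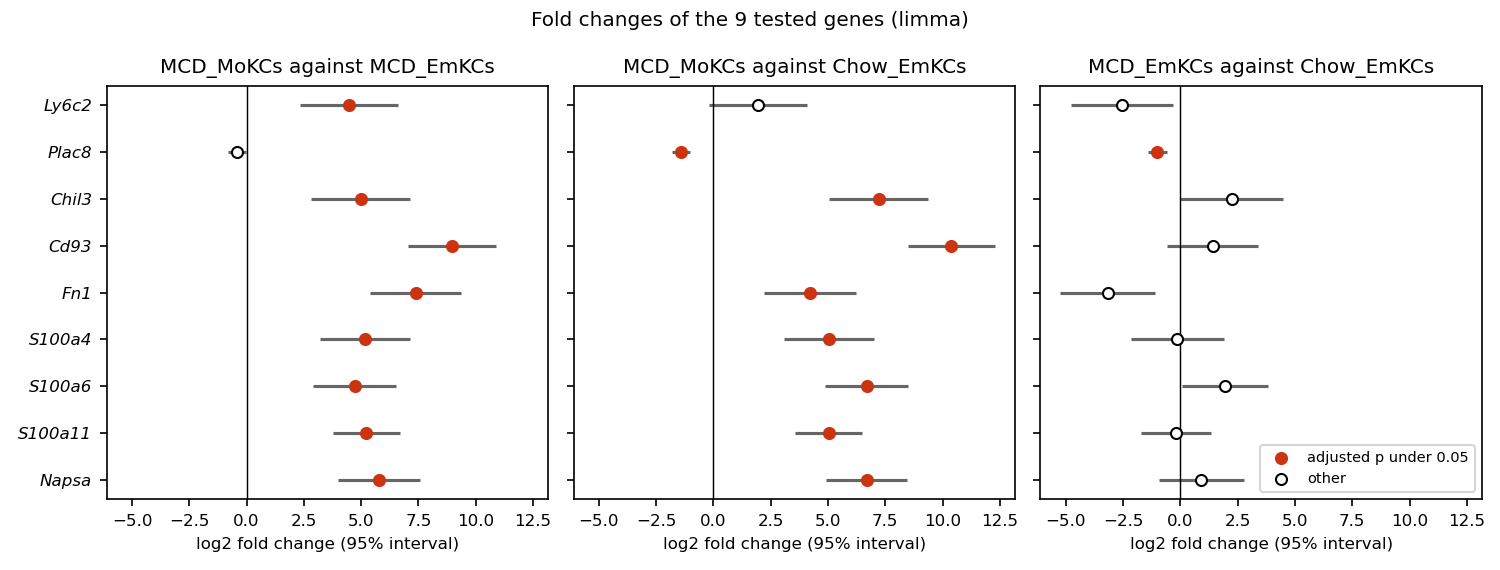
Log2 fold changes of the 9 tested genes with 95% confidence intervals from limma, for the 3 pairs of groups. Filled points passed an adjusted p of 0.05: 8 in the first panel, 8 in the second (7 higher and Plac8 lower) and Plac8 alone in the third.

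Ly6c2 encodes a GPI-anchored surface protein of the Ly6C antigen, the marker by which classical monocytes of the mouse are sorted; the gene lies on the minus strand at chr15:75108158-75111970 (mm10). It had 0 reads in all 6 MCD_EmKCs libraries. In Chow_EmKCs the lowest, median and highest libraries held 0, 10.3 and 19.9 normalised reads, and in MCD_MoKCs 0, 31.9 and 92.2. Thus 6 of the 7 MCD_MoKCs libraries lay above all MCD_EmKCs libraries and 5 lay above all Chow_EmKCs libraries, while MCD_MoKCs library 2 held none, where a count of 0 allows up to 3.84 normalised reads. Against a floor of 3 reads over the MCD_EmKCs group, the MCD_MoKCs mean of 38.5 ± 32.3 (SD, n = 7) was at least 82.8-fold higher (fitted log2 fold change 4.47, SE 1.04, limma adjusted p = 0.00451). Against Chow_EmKCs, at 9.01 ± 7.81 (SD, n = 6), the log2 difference of 1.93 (95% interval -0.21 to 4.06) did not pass, with a limma adjusted p of 0.233. The coding sequence of Ly6c2 is 89.6% identical to that of its neighbour gene Ly6c1, so reads shared by the copies could have been split. Ly6c1 had 0 reads in 17 libraries and its highest value, 20.5 normalised reads, in MCD_MoKCs library 2, the library without Ly6c2 reads.

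Chil3 encodes a secreted chitinase-like lectin without chitinase activity, also called Ym1, made by mouse monocytes, macrophages and neutrophil precursors (minus strand, chr3:106147554-106167564, mm10). On chow it had reads in library 6 only, at 42.03 normalised reads. In MCD_EmKCs the lowest, median and highest libraries stood at 0, 13.4 and 71.8, and in MCD_MoKCs at 69.3, 228 and 749.7. Every MCD_MoKCs library lay above every chow library, and 6 of 7 lay above all MCD_EmKCs libraries, with library 6 just under the highest of these. Means were 355 ± 247 (SD, n = 7) in MCD_MoKCs and 21.5 ± 27.1 (SD, n = 6) in MCD_EmKCs, a ratio of 16.5 that becomes 30.98 without MCD_EmKCs library 3. The log2 fold change of 4.97 (SE 1.05) passed by limma with an adjusted p of 0.00189. It did not pass by edgeR's quasi-likelihood test on the recovered reads (4.00, adjusted p = 0.0582) or by DESeq2 (4.05, adjusted p = 0.0601), and limma's adjusted p was 0.0564 without MCD_MoKCs libraries 2, 5 and 7, with a range of 5.9e-05 to 0.238 over all alternatives. Chil4, whose coding sequence is 95.3% identical, had 0 reads in all 19 libraries.

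Plac8 encodes a small cysteine-rich protein that is abundant in monocytes and other white blood cells (minus strand, chr5:100553725-100572245, mm10). It was the only member whose group mean was highest on chow. Chow_EmKCs libraries held 1606, 2206 and 2844 normalised reads (lowest, median, highest), MCD_EmKCs libraries 964, 1049 and 1266, and MCD_MoKCs libraries 468, 842 and 1032. All libraries on the MCD diet lay below all chow libraries, and 5 of the 7 MCD_MoKCs libraries lay below all MCD_EmKCs libraries. The stricter pattern of all 7 below was shown by 2.25% of tested genes, and the share with 5 below was not computed. The difference between the subsets on the MCD diet was -0.41 on the log2 scale (SE 0.19, 95% interval -0.79 to -0.02), with a limma adjusted p of 0.188 and a range of 0.0698 to 0.800 over all alternatives.

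Cd93 encodes a C-type lectin-like transmembrane receptor found on early myeloid cells, monocytes and endothelium (minus strand, chr2:148436640-148443563, mm10). It held 0, 0 and 8.70 normalised reads in the lowest, median and highest Chow_EmKCs libraries and 0, 1.27 and 59.3 in those of MCD_EmKCs. In MCD_MoKCs the same 3 values were 1383, 2289 and 3907. No MCD_MoKCs library came near the EmKC range, and 7 EmKC libraries had 0 reads. The mean of 2545 ± 960.3 (SD, n = 7) was 131 times that of MCD_EmKCs, at 19.4 ± 29.1 (SD, n = 6), and the ratio was 223 without MCD_EmKCs library 3 and 206 without library 4. On the log2 scale the fitted difference was 8.97 (SE 0.93, limma adjusted p = 1.22e-07), and its size depends on the pseudocount because of the zeros.

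Fn1 encodes fibronectin, a matrix glycoprotein bound by integrins and made by hepatocytes, fibroblasts and monocyte-derived macrophages (minus strand, chr1:71585520-71653200, mm10). Chow_EmKCs libraries held 25, 39.1 and 94.2 normalised reads (lowest, median, highest). In MCD_EmKCs, 3 libraries had 0 reads, 2 held 5.71 and 5.84, and library 6 held 297. The MCD_MoKCs libraries held 241, 695 and 2646, all above every chow library and 6 of 7 above MCD_EmKCs library 6. Means were 1090.3 ± 872 (SD, n = 7) in MCD_MoKCs and 51.4 ± 120.3 (SD, n = 6) in MCD_EmKCs, a ratio of 21.2 that becomes 472 without MCD_EmKCs library 6 (log2 fold change 7.37, SE 0.97, limma adjusted p = 6.91e-06). The same library had the highest albumin (Alb) level of its group, 1704 normalised reads against 263 to 330 in the other 5, and Alb and Fn1 are both hepatocyte products. In MCD_MoKCs, Alb was at 115 to 609 normalised reads. Over the 10 hepatocyte markers, none at 0 throughout a group, the summed level was 389 to 1266 in MCD_MoKCs, 517 to 2741 in MCD_EmKCs and 3622 to 11202 in Chow_EmKCs; the part of hepatocyte RNA in the Fn1 results was not tested. The exons of Fn1 overlap those of the antisense gene Apol7d, which reached 118 normalised reads in MCD_MoKCs library 7; whether counting used strand is not given in the sources used here, so reads of the pair may be mixed.

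Vcan encodes versican, a large hyaluronan-binding proteoglycan typical of classical monocytes (minus strand, chr13:89655312-89742509, mm10). It had 0 reads in all 6 Chow_EmKCs libraries and 5 reads in all in MCD_EmKCs, each of them in library 4 (3.17 normalised reads). In MCD_MoKCs it had 164 reads in 6 libraries, with a lowest, median and highest value of 0, 30.4 and 49.9 normalised reads. Library 2 held none and library 5 held 4.69, just above the highest EmKC library. The MCD_MoKCs mean of 23.98 ± 17.4 (SD, n = 7) was at least 51.4-fold higher than the floor of 3 reads over the Chow_EmKCs group. Exact two-sided permutation tests of the mean log2 value gave p = 0.00583 against MCD_EmKCs and p = 0.00466 against Chow_EmKCs (adjusted p = 0.00874 each, over 3 comparisons).

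The 3 S100 genes encode small calcium-binding proteins of the EF-hand type, which act inside the cell on the cytoskeleton and membranes and can be released. All lie on the plus strand of chromosome 3, S100a4 and S100a6 as near neighbours at chr3:90603771-90606045 and chr3:90612882-90624181, and S100a11 farther along at chr3:93520488-93526287 (mm10). Their coding sequences are 52.6 to 64.8% identical to each other. S100a4 stood at 0, 3.41 and 10.4 normalised reads in the lowest, median and highest Chow_EmKCs libraries, at 0, 1.46 and 11.8 in those of MCD_EmKCs and at 21.6, 59.8 and 359 in those of MCD_MoKCs. For S100a6 the same values were 0, 3.10 and 28.7 on chow, 0, 17.99 and 58.6 in MCD_EmKCs, and 148, 364 and 1082 in MCD_MoKCs. For S100a11 they were 4.21, 5.89 and 28.6 on chow, 0, 10.6 and 33.3 in MCD_EmKCs, and 209, 264 and 517 in MCD_MoKCs. Every MCD_MoKCs library lay above every EmKC library of either diet for all 3 genes. Of all tested genes, 2.62% showed this against MCD_EmKCs and 4.48% against Chow_EmKCs, and the share against both was not computed. S100a4 and S100a11 entered the fit only through the MCD_MoKCs libraries, so the pattern in these carries no weight. S100a4 averaged 154 ± 141 normalised reads (SD, n = 7) in MCD_MoKCs against 3.66 ± 4.89 (SD, n = 6) in MCD_EmKCs, a ratio of 42.2 that becomes 75.7 without MCD_EmKCs library 2 (log2 fold change 5.18, SE 0.95, limma adjusted p = 0.000437). S100a6 averaged 470.1 ± 332 (SD, n = 7) against 24.3 ± 21.7 (SD, n = 6), a ratio of 19.3 (4.72, SE 0.88, limma adjusted p = 0.000488). S100a11 averaged 315 ± 113 (SD, n = 7) against 12.3 ± 12.1 (SD, n = 6), a ratio of 25.6, or 38.7 without MCD_EmKCs library 3 (5.22, SE 0.71, limma adjusted p = 8.92e-06). The exons of S100a4 overlap those of Gm42674 on the same strand, which has no row of its own here.

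Because these 3 S100 genes were all called higher in MCD_MoKCs and Plac8 was not, the 250 bases before the start of each are shown, from RefSeq on GRCm38.p6, 5′ to 3′ on the gene's strand. Promoters were matched for 7 of the 10 genes by symbol. Cd93, Fn1 and Napsa were not matched. Capitals mark matches to 5 motifs searched on both strands. AP-1, a dimer of Fos and Jun proteins, was searched by the letters TGANTCA. The letters for C/EBP, a factor family of monocytes and granulocytes, were TTGCNNAA. For PU.1, a factor of all myeloid cells, the letters were GAGGAA. Factors of the KLF family were represented by the letters CACACCC. Lastly, the TATA box was searched as TATAAA. The windows are chr3:90603520-90603769 (plus) for S100a4, chr3:90612644-90612893 (plus) for S100a6, chr3:93520246-93520495 (plus) for S100a11 and chr5:100572206-100572455 (minus) for Plac8, the last from 1 of 2 starts listed.
S100a4: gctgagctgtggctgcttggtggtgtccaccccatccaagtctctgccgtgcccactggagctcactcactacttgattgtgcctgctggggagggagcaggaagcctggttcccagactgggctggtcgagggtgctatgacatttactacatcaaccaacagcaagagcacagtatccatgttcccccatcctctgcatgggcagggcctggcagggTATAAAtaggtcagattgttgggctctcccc
S100a6: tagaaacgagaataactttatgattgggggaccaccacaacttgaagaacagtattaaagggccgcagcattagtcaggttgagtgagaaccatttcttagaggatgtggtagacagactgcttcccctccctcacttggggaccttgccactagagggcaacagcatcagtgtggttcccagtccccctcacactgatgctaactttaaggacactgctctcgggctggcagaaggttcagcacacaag
S100a11: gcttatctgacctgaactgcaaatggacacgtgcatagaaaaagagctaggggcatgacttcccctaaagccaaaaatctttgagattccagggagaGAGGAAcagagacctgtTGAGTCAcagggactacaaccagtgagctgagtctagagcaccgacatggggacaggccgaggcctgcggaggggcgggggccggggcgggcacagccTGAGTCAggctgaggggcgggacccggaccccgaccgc
Plac8: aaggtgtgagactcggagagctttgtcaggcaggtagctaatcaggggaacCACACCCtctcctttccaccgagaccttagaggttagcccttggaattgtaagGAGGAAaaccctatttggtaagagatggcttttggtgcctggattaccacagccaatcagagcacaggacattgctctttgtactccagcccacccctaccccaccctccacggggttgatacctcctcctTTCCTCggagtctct
The S100a4 window held a TATA box match whose first base lies 31 bases before the start. S100a11 held AP-1 matches at 136 and 38 bases and a PU.1 match at 153 bases before its start. No letters of the 5 motifs were found in the S100a6 window. In Plac8 there were PU.1 matches at 146 bases on the gene's strand and at 15 bases on the opposite one, and a KLF match at 199 bases. No match overlapped another. Among 32841 RefSeq promoter windows of the same length, 6.75% held the AP-1 motif, 9.57% the C/EBP motif, 23.3% the PU.1 motif, 6.93% the KLF motif and 12.4% the TATA box. The same search found 1 PU.1 match in Ly6c2, at 108 bases, and none of the 5 motifs in Chil3 or Vcan. These matches describe the sequence and say nothing about which factors bind there.

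Napsa encodes napsin A, an aspartic protease of the pepsin family known from lung and kidney (plus strand, chr7:44572380-44586862, mm10). Chow_EmKCs libraries held 0, 13.2 and 26.1 normalised reads (lowest, median, highest), MCD_EmKCs libraries 0, 10.6 and 149, and MCD_MoKCs libraries 480.4, 851 and 1209.8. All 7 MCD_MoKCs libraries exceeded the highest EmKC library, MCD_EmKCs library 2. The means were 822 ± 244 (SD, n = 7) and, in MCD_EmKCs, 37.01 ± 56.7 (SD, n = 6), a ratio of 22.2 that becomes 56.1 without that library (log2 fold change 5.77, SE 0.87, limma adjusted p = 3.37e-05). The antisense gene Gm15396 overlaps exons of Napsa and has no row of its own in the table.

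Diet alone, in resident cells, was compared between MCD_EmKCs and Chow_EmKCs. Plac8 fell from 2166 ± 476 normalised reads (SD, n = 6) on chow to 1065 ± 115 (SD, n = 6) on the MCD diet, a log2 change of -1.0 (SE 0.19, limma adjusted p = 0.00229). The mitochondrial share of reads also fell without overlap, from 0.511 to 1.05% on chow to 0.155 to 0.317% on the MCD diet, and 7 of the 10 hepatocyte markers were called lower; their part in the diet results was not tested. The other 8 tested members did not pass the threshold in either direction. Of all tested genes 4.08% were called, 2.5% higher and 1.58% lower. Every MCD_EmKCs library lay below every chow library in 1.41% of tested genes, Plac8 among them, and above in 1.55%, none of them a member. The median log2 fold change of the 9 tested members was -0.13, against -0.04 over all tested genes. Differences that did not pass were wide in their intervals: -3.17 (95% interval -5.23 to -1.10) for Fn1, -2.54 (-4.75 to -0.33) for Ly6c2, 2.24 (-0.00 to 4.48) for Chil3, 1.96 (0.09 to 3.84) for S100a6 and 1.41 (-0.57 to 3.39) for Cd93. Fn1 had a limma adjusted p of 0.0785 with all libraries and 0.000379 without MCD_EmKCs library 6, where its log2 fold change was -4.35. With all libraries its means were 51.4 normalised reads in MCD_EmKCs and 46.9 on chow. Its log2 fold change was then 0.14 by edgeR's quasi-likelihood test (adjusted p = 0.976) and 0.13 by DESeq2 (adjusted p = 0.979). Ly6c2, with 50 reads over the chow group and 0 over the MCD_EmKCs group, was at least 19.4-fold higher on chow by the floor of 3 reads; its adjusted p was 0.227 by limma, 0.0425 by edgeR's quasi-likelihood test and 0.00776 by DESeq2.

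Recruited cells were also set against resident cells of chow-fed mice. Chil3, Cd93, Fn1, S100a4, S100a6, S100a11 and Napsa were higher in MCD_MoKCs and Plac8 was lower, so that 7 of 9 tested members were called higher (limma), against 8.68% of all tested genes, and 1 lower, against 8.08%. In each of those 7 genes every MCD_MoKCs library lay above every chow library, a pattern of 4.48% of tested genes, and the reverse that Plac8 showed was found in 3.5%. The median log2 fold change of the 9 tested members was 5.05, against -0.01 over all tested genes. Chil3, Cd93, S100a4 and S100a11 among the 7, and Ly6c2 besides, entered the fit only through the MCD_MoKCs libraries, so this count and this median carry no weight either. Because the MCD_MoKCs libraries serve in both comparisons, the fold changes are given side by side and not as independent evidence. Against chow they were 10.38 (SE 0.93) for Cd93, 7.21 (SE 1.05) for Chil3, 6.68 (SE 0.88) for S100a6, 6.68 (SE 0.87) for Napsa, 5.05 (SE 0.95) for S100a4, 5.03 (SE 0.71) for S100a11, 4.21 (SE 0.97) for Fn1 and -1.41 (SE 0.19) for Plac8, with limma adjusted p from 4.09e-09 (Cd93) to 0.0027 (Fn1). As ratios of means, Fn1 was 23.3 times its chow level and S100a4 38.2 times. The ratio for S100a6 was 71.3, or 216 without Chow_EmKCs library 1, and that for S100a11 was 30.4, or 46.9 without Chow_EmKCs library 3. Napsa had a ratio of 70.3. For Cd93 the ratio of 1366 becomes 5127 without Chow_EmKCs library 3, and for Chil3 the ratio of 50.7 rests on Chow_EmKCs library 6, the only chow library with reads. Fn1 no longer passed without MCD_MoKCs libraries 2, 5 and 7 (3.33, limma adjusted p = 0.0642).

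Levels of different genes can be compared only per length, here as normalised reads per kb of exons. In both EmKC groups Plac8 stood alone, at 1360.2 ± 299 per kb (SD, n = 6) on chow and 669 ± 72.2 (SD, n = 6) on the MCD diet, above 95.8 and 90.7% of the 13996 tested genes with a length. S100a11 came second in both, at 20.3 ± 18.4 and 24.1 ± 23.7 per kb. Below it, neighbours in the order differed by less than the larger of their SDs down to Ly6c2 on chow, and in MCD_EmKCs throughout. In MCD_MoKCs the order by level per kb was S100a11 at 617 ± 221 (SD, n = 7), Plac8 at 517 ± 124, Cd93 at 381 ± 144, S100a6 at 344 ± 243, Napsa at 309 ± 91.6, S100a4 at 264 ± 242, Chil3 at 218 ± 151, Fn1 at 93.3 ± 74.7, Ly6c2 at 14.1 ± 11.8 and Vcan at 1.66 ± 1.202. From S100a11 down to Fn1, neighbours differed by less than the larger of their SDs. The steps from Fn1 to Ly6c2 and from Ly6c2 to Vcan were larger than both SDs. S100a11 lay above 89.9% of tested genes per kb and Cd93 above 83.8%, while Ly6c2 lay above 16.7% and Vcan above 1.86%. The antigen gene by which classical monocytes are sorted was thus, per kb, among the lowest members in the recruited cells. S100a11, Plac8 and Cd93 had the highest means per kb there, without clear steps between neighbours.

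Among the 7 MCD_MoKCs libraries, the highest library was not the same for every member. Library 2 had the highest Chil3 (749.7 normalised reads), Fn1 (2646), S100a4 (359), S100a6 (1082) and Napsa (1209.8) and no reads of Ly6c2 or Vcan. Library 3 had the highest Ly6c2 (92.2) and library 1 the highest Vcan (49.9). Cd93 and S100a11 were highest in library 5, at 3907 and 517. S100a4 fell into separate ranges, 233 to 359 normalised reads in libraries 1, 2 and 3 and 21.6 to 59.8 in libraries 4 to 7. The mitochondrial share of reads followed the same split, at 0.534 to 0.729% in libraries 1 to 3 and 0.244 to 0.359% in libraries 4 to 7. So did the summed level of the 6 platelet markers, most of it Pf4, at 3573 to 4619 normalised reads in libraries 1 to 3 and 1603 to 2810 in libraries 4 to 7. That sum was 913 to 1495 in MCD_EmKCs and 203 to 766 in Chow_EmKCs, below all MCD_MoKCs libraries, and no marker was at 0 throughout a group. Neither measure's part in the S100a4 result was tested. The highest MCD_MoKCs library exceeded the lowest 16.6 times for S100a4, 10.97 times for Fn1, 10.8 times for Chil3 and 7.30 times for S100a6. For Cd93 the range was 2.82 times, for Napsa 2.52 times, for S100a11 2.47 times and for Plac8 2.21 times.

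**Figure D3:**
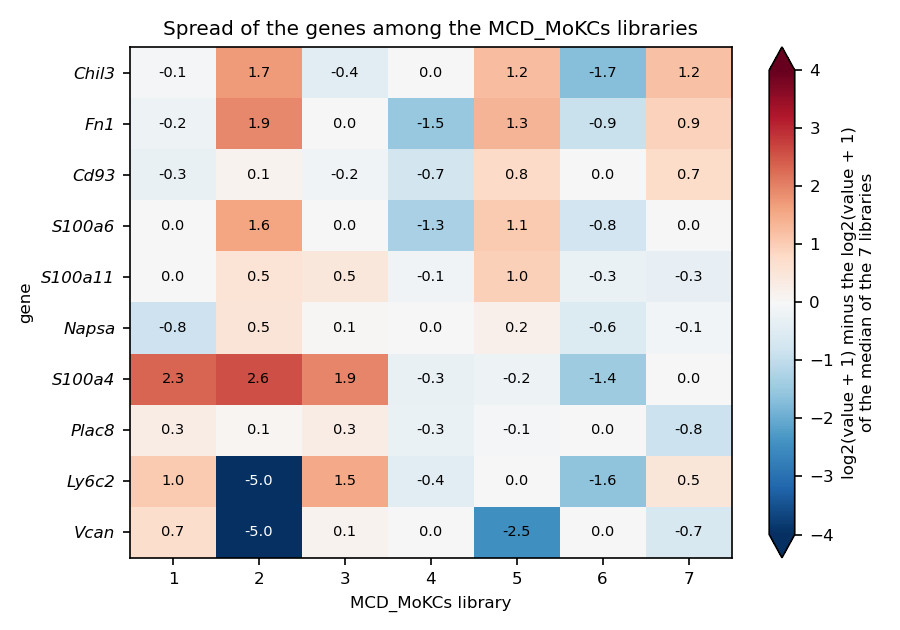
Colours and numbers give each gene's log2(normalised reads + 1) in the 7 MCD_MoKCs libraries, minus that of the gene's median library value. Library 2 is high for Chil3, Fn1, S100a4 and S100a6 and has no reads of Ly6c2 or Vcan, shown at -5.0.

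Markers of other cells were summed per library, because several members are also expressed outside the macrophage lineage. Over the 10 endothelial markers the summed level was 9501 to 11128 normalised reads in Chow_EmKCs, 9402 to 11839 in MCD_EmKCs and 3414 to 14782 in MCD_MoKCs, and none of the 10 was at 0 throughout a group. The most abundant marker in the EmKC groups was Stab2, a scavenger receptor, whose mean was 2365 in MCD_MoKCs against 5713 in MCD_EmKCs and 6019 on chow. The markers moved in both directions from MCD_EmKCs to MCD_MoKCs: Stab2, Cdh5 and Pecam1 were called lower, Clec4g, Oit3 and Bmp2 were called higher, and 4 did not pass (limma). Means rose from 377 to 1044 normalised reads for Clec4g, from 125 to 571 for Oit3 and from 529 to 1417 for Bmp2, along with Cd93. Cd93, which endothelium expresses, was highest in MCD_MoKCs libraries 5 and 7, at 3907 and 3792, the 2 libraries with the highest endothelial sums, 14782 and 14182. MCD_MoKCs library 6, with the lowest endothelial sum of all 19 libraries at 3414, held 2289 normalised reads of Cd93, and EmKC libraries held at most 59.3; the part of endothelial cells in the Cd93 result was not tested. Fn1 was highest in libraries 2, 5 and 7, which also held the 3 highest endothelial sums of the group. Without those 3 libraries, left out after their values were seen, 7 members remained past the threshold against MCD_EmKCs by limma. These were all those called with every library except Chil3. Ly6c2, Cd93, S100a4 and S100a11 among them entered the fit only through the MCD_MoKCs libraries, under a filter set on all 19, so this count carries no weight. The part of endothelial cells in these results was not tested.

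**Figure D4:**
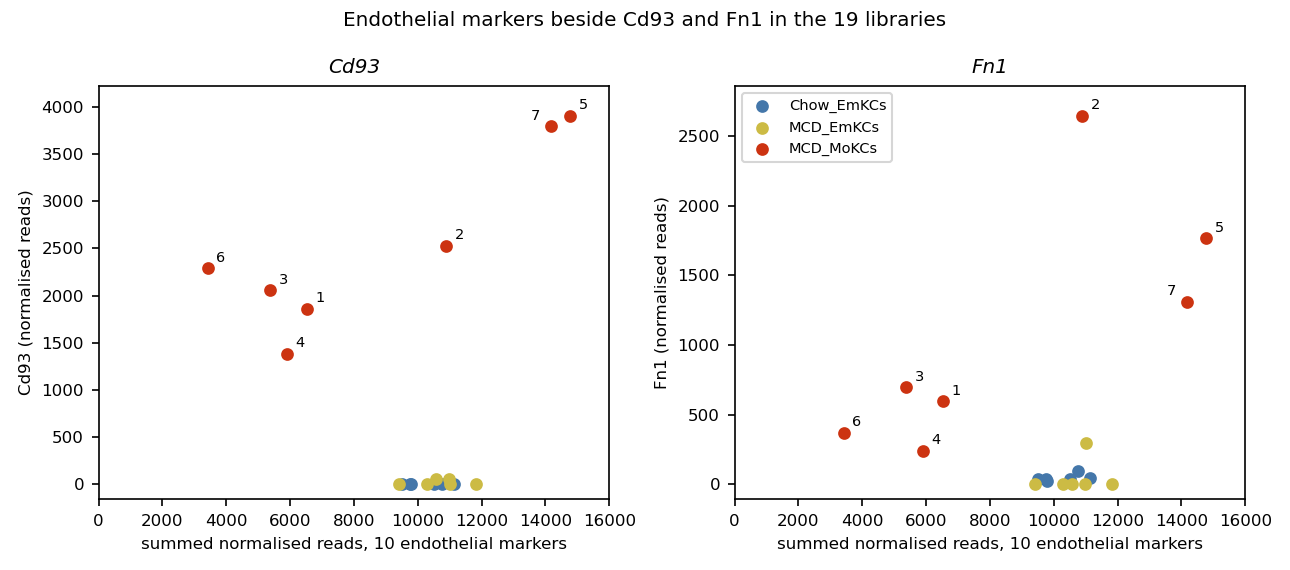
Normalised reads of Cd93 (left) and Fn1 (right) against the summed normalised reads of 10 endothelial markers in the 19 libraries, with MCD_MoKCs libraries numbered. MCD_MoKCs libraries 5 and 7 have the highest Cd93 and the highest sums, and library 6 has the lowest sum.

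Markers of lymphocytes, neutrophils and dendritic cells were summed in the same way. The summed level of the 12 T and NK cell markers was 1017 to 1645 normalised reads in MCD_MoKCs, against 259 to 525 in MCD_EmKCs and 147 to 300 in Chow_EmKCs, with none at 0 throughout MCD_MoKCs. Ly6c2 is also expressed by T cells. Cd3e, a chain of the T cell receptor complex, was at 0 normalised reads in MCD_MoKCs library 2, where Ly6c2 was also at 0, and at 88.9 in library 3, where Ly6c2 was highest. Lck, a kinase of T cells, ran the other way, with 204 in library 2, its highest value, and 95.5 in library 3. The summed level of all 12 was 1151 in library 2 and 1645 in library 3, the highest of the group; the part of T and NK cells in the Ly6c2 result was not tested. The 10 neutrophil markers summed to 1547 to 4790 normalised reads in MCD_MoKCs, 1950 to 2838 in MCD_EmKCs and 1887 to 3360 in Chow_EmKCs, and most of each sum was Csf3r. Their highest sum was in MCD_MoKCs library 2, which also held the highest Chil3 and the highest S100a8, S100a9 and Retnlg, at 1035, 873 and 272 normalised reads; the part of neutrophils in the Chil3 result was not tested. Camp, a granule gene of neutrophil precursors, was at 0 in 6 of the 7 MCD_MoKCs libraries. The 8 conventional dendritic cell markers summed to 941 to 3121 in MCD_MoKCs against 300 to 1364 in MCD_EmKCs, and were highest in libraries 7, 5 and 2; their part in the result was not tested.

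The members belong to larger families and programs, and lists of these were compared in MCD_MoKCs against MCD_EmKCs (limma). Of all tested genes, 5.64% were called higher and 4.9% lower in that comparison. The lists were chosen with earlier results of these data known, so the counts below are descriptions. Of 11 other S100 genes, 6 were tested and 2 were higher: S100a10, the annexin A2 partner, by 4.01 (SE 0.44) and S100a13 by 1.07 (SE 0.34). The alarmins S100a8 and S100a9 did not pass, at 1.78 (SE 0.83) and 3.18 (SE 1.12). Among 8 other Ly6 genes 2 were tested, and Ly6a, the stem cell antigen Sca-1, was higher by 1.33 (SE 0.34). Of 6 other chitinase-like genes Chil1 alone was tested and was higher by 4.88 (SE 0.83), the same direction as Chil3. Of 5 aspartic protease genes related to Napsa 4 were tested, and cathepsin E (Ctse) was higher by 4.45 (SE 0.78). None of the 3 tested genes listed with Cd93, Clec14a, Mmrn2 and Thbd, passed.

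Among 8 fibronectin-binding genes, Itgb7 was higher by 0.90 (SE 0.25) and Itgb3 by 3.12 (SE 0.95), while Itgb1, the beta chain of the main fibronectin receptor, was at -0.48 (SE 0.15) and lower. Of 14 genes of the versican and hyaluronan list 5 were tested and 1 was higher, Adamts9, a protease that cuts versican, by 3.78 (SE 1.13). Of 20 classical monocyte genes outside the members, all tested, 9 were higher and 2 lower. Examples were the lectin receptor Clec4e at 4.11 (SE 0.42), lysozyme (Lyz2) at 0.82 (SE 0.16) and Smpdl3a at -0.67 (SE 0.13). Of 11 non-classical monocyte genes 4 were higher and 3 lower, with the fatty acid-binding protein Fabp4 at 4.34 (SE 0.71), the surface receptor Cd300e at -1.41 (SE 0.18) and the adhesion receptor Adgre4 at -1.15 (SE 0.16). Of 13 genes of recruited macrophages 11 were higher and 0 lower, among them annexin A2 (Anxa2) at 1.88 (SE 0.22), the fractalkine receptor Cx3cr1 at 7.49 (SE 0.93) and the cytoskeletal protein Lsp1 at 1.71 (SE 0.23). The median log2 fold changes were 0.81 for the classical monocyte list, -0.14 for the non-classical list and 1.46 for the recruited macrophage list, beside 0.02 for all tested genes. The lists were chosen with earlier results of these data known, so their counts and medians are descriptions and carry no weight. Whether listed genes entered the fit only through the MCD_MoKCs libraries was not examined. Of all tested genes, 5.64% were called higher and 4.9% lower.

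**Figure D5:**
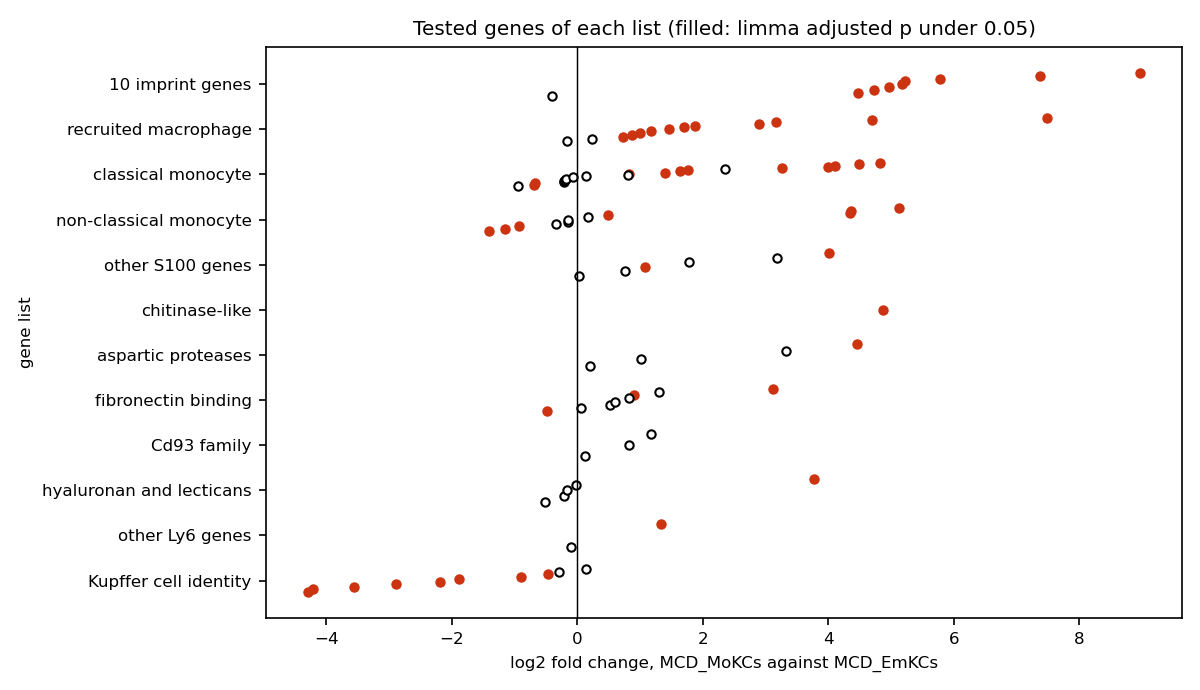
Each point is 1 tested gene at its log2 fold change between MCD_MoKCs and MCD_EmKCs, in rows for the imprint genes and 11 related lists. Of the 10 imprint genes 9 are drawn, because Vcan was not in the fit. Filled points passed a limma adjusted p of 0.05, as did 5.64% of all tested genes upward and 4.9% downward. The imprint genes hold 8 filled points to the right of 4 and Plac8 near 0, while 8 of the 10 Kupffer cell identity genes are filled and below 0. Ly6c2, Chil3, Cd93, S100a4 and S100a11 entered the fit only through the MCD_MoKCs libraries. The lists were chosen with earlier results of these data known.

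The same lists were read for the diet in resident cells, where 2.5% of all tested genes were called higher and 1.58% lower. Of the 2 tested Ly6 genes both were lower in MCD_EmKCs than in Chow_EmKCs, Ly6a by a log2 change of -2.33 and Ly6e, the most abundant gene of that list, by -0.62 (limma). None of the 6 tested S100 genes and none of the 5 tested versican and hyaluronan genes passed there. Of the 20 classical monocyte genes 2 were higher and 2 lower, with Clec4e higher by 2.46 and Lyz2 lower by a log2 change of -0.78.

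The genes most like the 4 members with the highest mean of normalised reads in MCD_MoKCs, not corrected for length, were found by Pearson correlation of log2(normalised reads + 1) over the 19 libraries, which fall into the same 3 groups for every gene. For Cd93 they were Msantd3 (r = 0.96) and Anxa2 (r = 0.95), and for Fn1 the coagulation factor F10 (r = 0.88) and Gm12854 (r = 0.87). For Plac8 they were the receptor genes Pilrb1 (r = 0.94) and Fcgr4 (r = 0.93), and for Napsa Trerf1 (r = 0.93) and Cfap53 (r = 0.90). These values are descriptions with no test. Pilrb1 had the same order of group means as Plac8, 5266 normalised reads on chow, 2494 in MCD_EmKCs and 1850.0 in MCD_MoKCs. Anxa2 had the opposite order, at 314, 622 and 2214.

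Library numbers in the labels run in a lower set up to 33 and an upper set from 37, with 3 and 3 libraries of each EmKC group and 5 and 2 of MCD_MoKCs, so MCD_MoKCs against MCD_EmKCs was fitted in each set. The log2 fold changes in the lower and upper set were 9.14 and 8.98 for Cd93, 5.08 and 5.07 for S100a11, 4.95 and 4.56 for S100a4, 4.27 and 4.89 for S100a6, 4.46 and 4.49 for Ly6c2 and 4.93 and 4.69 for Chil3. Fn1 was at 9.75 and 4.87, the upper set holding MCD_EmKCs library 6, and Napsa at 4.37 and 7.04, the lower set holding MCD_EmKCs library 2. Plac8 was at -0.34 and -0.68. In the upper set, with 2 MCD_MoKCs libraries, limma called only Cd93 and Napsa of the members.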

How the data were processed

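Per the labels' protocols, liver was digested with collagenase D, Kupffer cells were sorted by flow cytometry and their mRNA was amplified by SMART-seq before Illumina sequencing. The authors deposited 1 table of 33919 genes by 19 libraries, a read signal per gene that they had divided by 1 size factor per library, as the values themselves show: 100% of them gave whole reads, to within 0.001 of a read, when scaled back. STAR, DESeq2 and mm10 are named in the submitters' processing notes; for the counter, the annotation, versions and strand use, the status is "not given in the sources used here". Symbols were matched for 29062 identifiers and not for 4857. Positions and exon lengths are from GENCODE on the same build.

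Samples were grouped by title. The main test was limma 3.58.1 (R 4.3.3) with a mean-variance trend and robust variances on log2(value + 1), all 19 libraries in 1 fit with a mean per group, for genes with at least 10 in at least 6 libraries. Recovered reads were tested with edgeR 4.0.16 and DESeq2 1.42.0 as alternatives, and other pseudocounts, filters, scalings and library sets were tried. The fit was tested on simulated data. A fold change on this scale is a difference of mean log2 values. Where libraries hold zeros or very low values, it can lie above or below the ratio of means. For Fn1 in MCD_EmKCs against Chow_EmKCs it was -3.17, while the ratio of means was 1.10. Vcan was tested by exact permutation.

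The 10 genes, the lists and the alternatives were chosen with earlier results of these data known. All 10 members are named. From each related list at most 3 genes with the smallest adjusted p past the threshold are named, besides Ly6c1 and Chil4, and for likeness the 2 closest genes of the 4 members with the highest mean of normalised reads in MCD_MoKCs. Other named genes were chosen after their values were seen. Reads carry no molecular identifiers, so floors cover counting error only.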

Additional observations from a re-analysis of the deposited data

Results flagged for a closer look

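In 8 of 28 groups of libraries examined for the 10 genes, 1 library lay far from the others of its group, by the gap to its nearest neighbour over the group's whole range (Dixon's 95% limit). The limit gives such a library in about 1 in 20 groups only for normally distributed values, and many of these groups hold zeros. Where 5 libraries were at 0, any reads in the remaining one were flagged. The share of flagged groups therefore carries no weight, and most of the flagged values are low. On chow they were Chil3 in Chow_EmKCs library 6 at 42.03 normalised reads with 0 in the other 5, Cd93 in library 3 at 8.70, Fn1 in library 4 at 94.2, S100a6 in library 1 at 28.7 and S100a11 in library 3 at 28.6. In MCD_EmKCs they were Fn1 in library 6 at 297, with 5.84 as the next value, Napsa in library 2 at 149, with 42.7 as the next, and Vcan in library 4 at 3.17, with 0 in the other 5. No MCD_MoKCs library stood apart in this way for any of the 10 genes.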

How the results depend on the processing

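Cd93 and Napsa passed in MCD_MoKCs against MCD_EmKCs and against Chow_EmKCs under every alternative run, and no call of a member in these comparisons was lost when 1 library was left out. The fits with 1 library left out kept the gene filter of the full set. Ly6c2, Chil3, Cd93, S100a4 and S100a11 passed that filter only through the MCD_MoKCs libraries. Neither their kept calls nor the counts of members called higher in this section therefore carry weight. In MCD_MoKCs against MCD_EmKCs, 1568 genes were called with all libraries, 870 in library numbers up to 33 and 565 in those from 37. Without MCD_MoKCs libraries 1 to 3 the count was 1010, and without libraries 4 to 7 it was 1702. It was 989 without libraries 2, 5 and 7 (chosen after the data were seen). Fewer libraries entered each of these fits, and the count did not fall in all of them. Members called higher numbered 2 in the set from 37, and 1288 to 1596 genes were called when 1 library was left out, with 8 members higher each time. On the recovered reads edgeR called 652 genes higher and 673 lower there, and DESeq2 1003 and 843. In MCD_EmKCs against Chow_EmKCs, 607 genes were called, 179 in the lower set and 263 in the upper, and 468 to 620 with 1 library left out. Members called lower there numbered 1 with all libraries, 2 by edgeR, by DESeq2 and in the lower set, 0 in the upper set, and 1 to 2 with 1 library left out, Fn1 being the second without MCD_EmKCs library 6. In MCD_MoKCs against Chow_EmKCs, 2493 genes were called, 1257 in the lower set and 1288 in the upper, where 4 members were higher. The set of numbers from 37 lost Ly6c2, Chil3, Fn1, S100a4, S100a6 and S100a11 against MCD_EmKCs, and Chil3, Fn1 and S100a4 against chow. Ly6c2 against MCD_EmKCs also missed the threshold in the lower set (limma adjusted p = 0.115) and without MCD_MoKCs libraries 4 to 7 (0.0646).

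Directions reversed only in MCD_EmKCs against Chow_EmKCs, for members not called there. S100a11, at -0.19, was 0.061 with a pseudocount of 10, 0.26 by edgeR and by DESeq2, 0.084 in the upper set, and -0.61 to 0.41 with 1 library left out, above 0 without Chow_EmKCs library 3 and without MCD_EmKCs library 1 or 4. S100a4, at -0.13, was 1.25 in the lower set and -0.58 to 0.26 with 1 library left out, above 0 in 6 of those fits. Fn1, at -3.17, was 0.14 by edgeR and 0.13 by DESeq2, and Napsa, at 0.90, was -1.92 in the upper set. Apart from the sets and the named libraries, the cause was not tested.

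Deviations of same-numbered libraries from their group means had correlations from -0.07 to 0.08. Such values show no pairing by number, and they cannot exclude a weak one. With the number as a replicate block 1658, 608 and 2474 genes were called in the 3 comparisons, and 8, 0 and 7 members were higher. For Vcan, exact p was 0.0893 in the lower set and 0.10 in the upper, the latter the smallest that 2 libraries against 3 allow, and 0.0833 without MCD_MoKCs libraries 4 to 7. Low members rest on few reads: Ly6c2 had 50 reads over Chow_EmKCs and Vcan 164 over MCD_MoKCs.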
